A study of Mus musculus with 64 samples.

Results

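The genes of voltage-gated calcium and sodium channels were examined in striatal RNA of 16 mice. They were taken by symbol from the 23420 genes in the count tables, as every symbol starting with Cacna, Cacnb or Cacng and every Scn symbol made of a number and a final a or b. This gave 39 genes, 26 for calcium and 13 for sodium channels, of which 34 (24 and 10) had a mean of at least 1 CPM (counts of a gene scaled to a common total of gene reads). The gene of Nav1.2 is listed under its older symbol Scn2a1 and so falls outside the 39. It is given below only as a non-member. The lowest genes kept were Cacng1 at a mean of 1.19 CPM and Cacna1s at 1.30 CPM, and the genes left out were Cacna1f at 0.612, Cacng6 at 0.264, Scn10a at 0.235, Scn11a at 0.223 and Scn4a at 0.0403 CPM.

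The mice came from an F2 cross of the C57BL/6NJ and C57BL/6J substrains and were homozygous at 1 selected locus, with 2 copies of the mutant B6NJ allele (N/N, labelled binge-prone) or of the wild-type B6J allele (J/J, labelled binge-resistant). There were 8 mice per genotype, of which the sample labels give 5 as female and 3 as male. All were 69 to 100 days old, and all had their striatum punched on day 24 directly after a 5 min test on the EPM. Elsewhere in their genomes F2 mice carry mixed alleles of both substrains. Each mouse had 27405386 to 51334152 reads in genes after its 4 sequencing runs were summed, with medians of 31538235 for N/N and 31502380 for J/J. Runs of a mouse differed about as much as sampling noise (median chi-square per degree of freedom 1.04), against 7.10 to 49.2 between mice of a group.

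A voltage-gated calcium or sodium channel is built around 1 large pore-forming alpha subunit that opens when the membrane depolarises. Sodium channels carry the rising phase of the action potential, and their beta subunits are adhesion-like membrane proteins that set gating and surface density. Calcium channels couple voltage to calcium entry, and comprise the L-type (Cav1), the presynaptic P/Q-, N- and R-type (Cav2) and the low-voltage T-type (Cav3) pores with extracellular alpha2delta and cytoplasmic beta subunits. Most gamma subunit genes expressed in brain encode TARPs, which traffic and tune AMPA-type glutamate receptors. The principal cells of the striatum are medium spiny neurons, GABAergic projection neurons with a hyperpolarised resting potential.

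Promoter sequences are shown for 4 members that the results below turn on: the neighbouring Nav beta genes Scn4b and Scn2b, whose levels varied across mice by different amounts, and the alpha2delta genes Cacna2d3 and Cacna2d1, whose slopes on tissue composition had opposite signs. Each is 300 bases, from 250 before to 50 after the annotated start, from RefSeq on GRCm38.p6, written 5′ to 3′ on the strand of the gene, with every CG dinucleotide in capitals. The windows are chr9:45138374-45138673 (+ strand) for Scn4b, chr9:45117626-45117925 (+ strand) for Scn2b, chr14:29721815-29722114 (- strand) for Cacna2d3 and chr5:15934441-15934740 (+ strand) for Cacna2d1.
Scn4b: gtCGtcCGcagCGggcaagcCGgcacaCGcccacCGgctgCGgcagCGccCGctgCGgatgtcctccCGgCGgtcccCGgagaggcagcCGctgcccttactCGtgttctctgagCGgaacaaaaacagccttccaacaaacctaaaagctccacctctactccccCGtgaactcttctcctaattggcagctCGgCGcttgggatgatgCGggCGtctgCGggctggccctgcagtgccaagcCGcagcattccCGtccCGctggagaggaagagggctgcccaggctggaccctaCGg
Scn2b: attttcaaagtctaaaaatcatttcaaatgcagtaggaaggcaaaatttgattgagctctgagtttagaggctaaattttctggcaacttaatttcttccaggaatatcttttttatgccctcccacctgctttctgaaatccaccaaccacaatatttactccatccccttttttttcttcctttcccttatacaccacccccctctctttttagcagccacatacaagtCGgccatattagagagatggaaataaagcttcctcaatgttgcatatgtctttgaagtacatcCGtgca
Cacna2d3: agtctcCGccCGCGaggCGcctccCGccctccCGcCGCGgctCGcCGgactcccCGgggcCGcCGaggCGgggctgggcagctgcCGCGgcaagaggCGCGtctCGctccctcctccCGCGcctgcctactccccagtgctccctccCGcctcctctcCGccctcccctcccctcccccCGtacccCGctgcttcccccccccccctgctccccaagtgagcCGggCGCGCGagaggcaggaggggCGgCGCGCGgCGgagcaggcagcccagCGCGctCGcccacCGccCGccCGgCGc
Cacna2d1: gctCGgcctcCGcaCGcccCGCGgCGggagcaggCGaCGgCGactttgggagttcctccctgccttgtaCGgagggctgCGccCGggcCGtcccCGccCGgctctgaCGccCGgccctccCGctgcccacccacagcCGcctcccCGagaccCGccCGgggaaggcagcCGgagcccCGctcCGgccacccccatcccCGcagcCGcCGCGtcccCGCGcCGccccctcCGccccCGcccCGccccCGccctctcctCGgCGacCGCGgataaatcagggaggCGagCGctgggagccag
The Scn4b window held 26 CG dinucleotides and the Scn2b window 2, although the gene bodies lie 8324 bp apart on chromosome 9 in GENCODE M21. That annotation starts Scn4b at 45138395 and Scn2b at 45117782, earlier than RefSeq does. By it, more of these 2 windows lies within the gene than the 50 bases stated. The Cacna2d3 window held 41 and the Cacna2d1 window 42. A promoter was found for 24 of the 34 members (34 windows), with a median of 13.5 CG against 7 over 32851 windows of all genes, 94.6% of which held at least 1. These letters are a description of the windows and say nothing of which factors act there.

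Per kilobase of exon, sodium channel beta genes were among the most abundant members. Scn4b, the beta4 subunit known from striatal and cerebellar neurons, had 285 ± 66.2 CPM per kb (SD, n = 16, as for all levels here), Scn2b (beta2) 91.0 ± 6.80 and Scn3b (beta3) 31.0 ± 2.50. These were separated from each other by more than the SD between mice. They stood above every pore gene among the members. Among the pore genes of sodium channels, Scn8a (Nav1.6, the channel of the axon initial segment) had 22.9 ± 1.42 CPM per kb, Scn1a (Nav1.1) 13.5 ± 1.21 and Scn3a (Nav1.3, best known from developing neurons) 8.28 ± 0.88. Nav1.2, the non-member Scn2a1, had 374 CPM, or 29.4 CPM per kb. Scn9a (Nav1.7, known from sensory neurons) at 0.924 ± 0.17 and the sodium-sensing Scn7a (Nax) at 0.633 ± 0.24 CPM per kb were far lower.

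The pore genes of Cav2 and Cav3 channels were above those of Cav1 per kilobase. Cacna1i (Cav3.3) had 16.7 ± 1.46 CPM per kb, Cacna1e (Cav2.3, R-type) 15.3 ± 1.90, Cacna1a (Cav2.1, P/Q-type) 13.7 ± 0.78 and Cacna1h (Cav3.2) 13.5 ± 1.87, and neighbours in this order differed by less than the SD between mice. With the longest annotated transcript as length the order changed, to Cacna1e at 25.9, Cacna1a at 19.7, Cacna1i at 16.9 and Cacna1h at 16.0 CPM per kb. Cacna1b (Cav2.2, N-type) had 9.85 ± 0.84 and Cacna1g (Cav3.1) 7.03 ± 1.09 CPM per kb. The L-type genes followed, with Cacna1d (Cav1.3) at 5.45 ± 0.47 and Cacna1c (Cav1.2) at 3.62 ± 0.37, a gap larger than the SD. The skeletal muscle gene Cacna1s had 0.198 ± 0.11 CPM per kb, from 18 to 91 reads per mouse.

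The accessory genes of calcium channels spanned a wider range than the pores. Cacnb3 was highest among the cytoplasmic beta subunits at 75.1 ± 9.02 CPM per kb, then Cacnb4 at 40.7 ± 4.11, Cacnb1 at 22.2 ± 2.59 and Cacnb2 at 5.84 ± 0.83. Of the alpha2delta genes, Cacna2d3 had 24.4 ± 3.96, Cacna2d1 (a binding site of gabapentin) 19.2 ± 2.13, Cacna2d2 10.5 ± 1.67 and Cacna2d4, known from retina, 0.333 ± 0.036. The TARP genes Cacng3 (35.1 ± 3.26) and Cacng7 (24.7 ± 3.03) were above Cacng8 (11.8 ± 1.14), Cacng2 (stargazin, 9.32 ± 0.76), Cacng4 (8.19 ± 1.53) and Cacng5 (2.60 ± 0.63), with the muscle gene Cacng1 lowest at 0.951 ± 0.28. Length matters for this order. With the longest annotated transcript in place of all annotated exons the level of 20 of the 34 moved by more than its SD, and Cacna2d3 went from 24.4 to 57.7 CPM per kb.

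**Figure D1:**
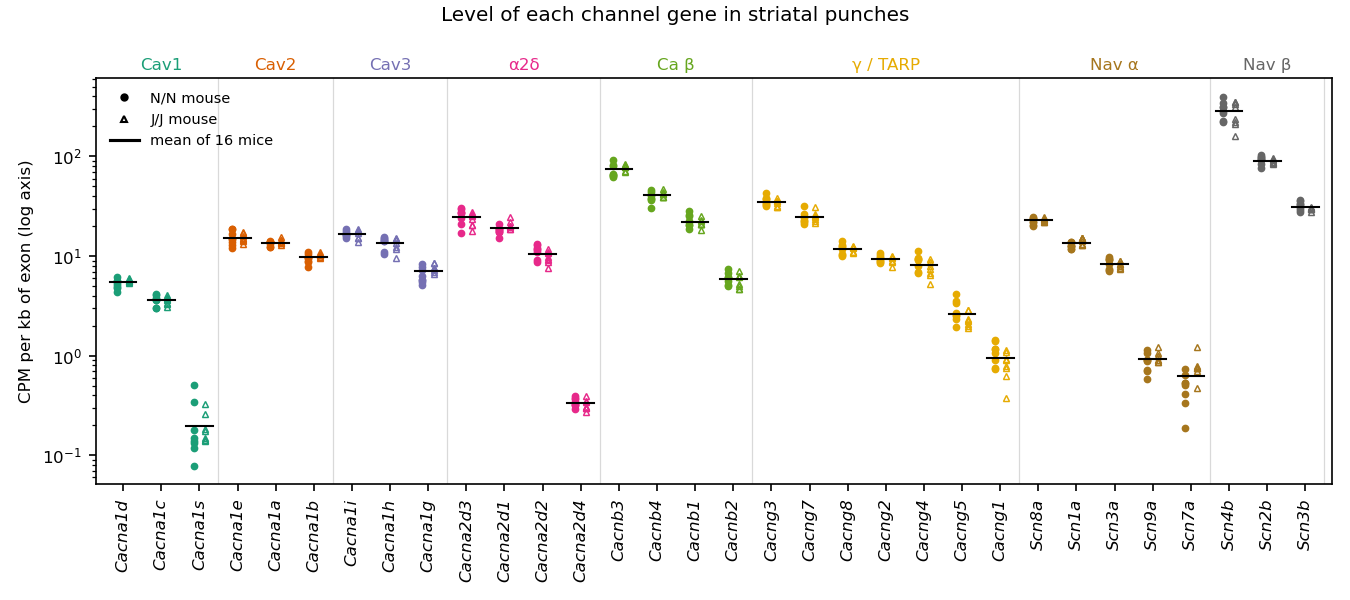
Level of 32 members in CPM per kilobase of exon (log axis), 1 point per mouse, filled circles for N/N and open triangles for J/J, with a line at the mean of 16 mice. Genes are grouped by subfamily, and Scn4b at 285 is the highest, with Scn2b at 91.0 and Cacnb3 at 75.1.

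Levels differed between mice far more for some members than for others. Scn4b ran from 792 CPM in J/J male mouse 8 to 1982 CPM in N/N female mouse 11, a 2.50-fold range with a coefficient of variation (CV) of 23.2%, where counting error alone gives 0.46%. Its neighbour Scn2b ran from 360 to 481 CPM, a 1.34-fold range. Within a mouse the per-kb ratio of Scn4b to Scn2b therefore went from 1.86 in mouse 8 to 3.85 in mouse 11, with a median of 3.12, a quantity that does not depend on how libraries are scaled. In the same 2 mice the ratio of Cacna2d3 to Cacna2d1 was lowest and highest as well, 0.734 and 2.004, with a median of 1.34. Cacna1a was the steadiest member, at 140 to 176 CPM and a CV of 5.73%, and Cacna1s the most variable, at 0.518 to 3.32 CPM and a CV of 55.2%. Among genes at 10 CPM or more the median CV was 10.4% for the 28 members and 7.40% for all 10284 genes.

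Punches can differ in the tissue they hold, so member levels were set against lists of cell type markers. Medium spiny neuron markers (15 of 16 genes listed, Drd1 not under that symbol) summed to 6443 to 11015 CPM for N/N and 5277 to 9329 CPM for J/J, which fits a striatal label. Markers of cortical projection neurons (11 of 11 listed) summed to 494 to 1467 CPM in N/N and 929 to 1790 CPM in J/J, a 3.62-fold range over mice. Most of the cortical sum was Slc17a7, at a mean of 773 CPM (255 to 1214), where the next highest gene, Lamp5, had 107 CPM (85.7 to 126). Meningeal markers (6 of 6) summed to 126 to 446 CPM in N/N and 151 to 480 CPM in J/J. Most of the meningeal sum was Ptgds, at a mean of 240 CPM (103 to 440), where the next highest gene, Col1a2, had a mean of 10.1 CPM. No marker of these lists was at 0 in all mice. A score per mouse was the mean log2 CPM of a list. The cortical score was lowest in N/N female mouse 11 (4.17) and highest in J/J male mouse 8 (5.90). The medium spiny neuron score was highest in mouse 11 (8.66) and lowest in mouse 8 (7.65). Over the 16 mice these scores had r = -0.80 and Spearman's rho = -0.79 (permutation tests, 100000 draws, p = 0.00011 and 0.00038, adjusted over 3 relations p = 0.00033 and 0.00114), and r = -0.71 without the 2 mice farthest from the median cortical score. The myelin score (14 of 14 markers) had r = -0.69 and rho = -0.68 with the cortical score (adjusted permutation p = 0.00364 and 0.00787), which fell to r = -0.46 without those 2 mice. It had r = 0.68 and rho = 0.59 with the medium spiny neuron score (adjusted permutation p = 0.00406 and 0.0186), and r = 0.45 without the 2 mice farthest from the median of that score. In bulk tissue, fewer cells of a type and less RNA per cell cannot be told apart.

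Many channel genes varied with the medium spiny neuron score. In edgeR's quasi-likelihood test with sex and genotype as terms, and with Benjamini-Hochberg adjustment over all 16113 genes tested, 16 of 34 members had a slope on that score, 11 rising and 5 falling, or 47.1% against 13.5% of all genes. The median slope was 0.19 over the members and -0.0056 over all genes. Slopes are log2 changes in level per unit of score, that is, for a doubling of the geometric mean of the markers, and a slope of 1 means in proportion. Score and gene come from the same library, so a slope describes covariation over mice.

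Scn4b rose most steeply, with a slope of 1.19 (SE 0.12, adjusted p = 2.56e-06). The TARP gene Cacng4 had 0.91 (SE 0.073, adjusted p = 1.66e-07), Cacna2d3 0.88 (SE 0.072, adjusted p = 2.05e-07) and Cacnb2 0.69 (SE 0.086, adjusted p = 2.41e-05). Cacng4 went from 18.7 CPM in mouse 8 to 40.2 CPM in mouse 11, Cacna2d3 from 150 CPM in N/N female mouse 13 to 263 CPM in mouse 11, and Cacnb2 from 61.7 to 98.0 CPM in mice 8 and 11. A straight line on the score left little spread in these genes: the SD of log2 CPM went from 0.26 to 0.064 for Cacna2d3, from 0.29 to 0.076 for Cacng4, from 0.21 to 0.087 for Cacnb2 and from 0.37 to 0.13 for Scn4b. All 4 were also past the threshold in N/N mice alone, in J/J mice alone, in females alone and without mice 8 and 13, the farthest from the median score. Slopes of Scn4b were 0.94 within N/N and 1.67 within J/J, of Cacng4 0.89 and 1.10, of Cacna2d3 0.94 and 0.87, and of Cacnb2 0.64 and 0.97. Whether these slopes differ between genotypes was not tested.

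Other members rose less steeply or on fewer reads. Cacna2d2 had a slope of 0.63 (SE 0.12, adjusted p = 0.00184), and Cacng1, whose gene lies 15834 bp from Cacng4 on chromosome 11, had 1.17 (SE 0.28, adjusted p = 0.00941) at only 0.469 to 1.79 CPM. Without mouse 8 Cacng1 was no longer past the threshold. The remaining 5 were chosen after their values were seen: the T-type pores Cacna1h (0.51) and Cacna1i (0.38), the Nav1.3 gene Scn3a (0.43), the L-type pore Cacna1c (0.38) and Scn2b (0.38), with adjusted p from 0.000923 for Scn2b to 0.0237 for Cacna1c. Scn2b thus rose with the score like Scn4b beside it, with a 95% interval of 0.24 to 0.52 against 0.94 to 1.45.

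Falling with the medium spiny neuron score were, among others, Cacna1s (-1.42, SE 0.42, adjusted p = 0.0306), Cacng7 (-0.39, SE 0.099, adjusted p = 0.0142), Cacnb3 (-0.38, SE 0.11, adjusted p = 0.0271) and Cacna2d1 (-0.32, SE 0.088, adjusted p = 0.0220). Each of these lost the call without 1 or another mouse. These were 6 mice for Cacna1s (J/J females 1, 10 and 16, N/N male 9 and N/N females 11 and 13), 5 for Cacnb3 (N/N females 4, 11 and 13, N/N male 5 and J/J male 8), 3 for Cacna2d1 (N/N females 4 and 11 and J/J male 8) and N/N female 13 for Cacng7. In J/J mice alone the slope of Cacnb3 was 0.034. The Cav2 genes did not pass the test: Cacna1a, Cacna1b and Cacna1e had slopes between 0.0099 and 0.38. The Nav1.2 gene Scn2a1, a non-member, had 0.11 (adjusted p = 0.546).

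On the cortical score 12 members had a slope past the threshold, 5 rising and 7 falling, or 35.3% against 11.9% of all genes, with a median slope of -0.093 against -0.0068. The 2 scores run against each other, so these are not separate evidence. Rising with the cortical score were, among others, Scn7a (1.13, SE 0.18, adjusted p = 0.000355), the T-type pore Cacna1g (0.48, SE 0.080, adjusted p = 0.000646), Cacnb3 (0.36, SE 0.077, adjusted p = 0.00524) and Cacna2d1 (0.28, SE 0.063, adjusted p = 0.00699). Cacna1g went from 52.0 CPM in mouse 11 to 86.3 CPM in J/J male mouse 3. Scn7a, which encodes a sodium-sensing channel known from glia and the organs around the brain ventricles and not a voltage-gated one, was at 1.37 CPM in mouse 11 and 8.96 CPM in mouse 8, from 39 to 325 reads per mouse.

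Falling with the cortical score were Scn4b (-0.71, SE 0.18, adjusted p = 0.0199), Cacng4 (-0.54, SE 0.12, adjusted p = 0.00976), Cacna2d3 (-0.46, SE 0.14, adjusted p = 0.0372), Cacnb2 (-0.44, SE 0.10, adjusted p = 0.00912), Cacna2d2 (-0.41, SE 0.12, adjusted p = 0.0361), Scn3a (-0.28, SE 0.089, adjusted p = 0.0487) and Scn2b (-0.23, adjusted p = 0.0342), the last named after its value was seen. The cortical slopes leaned on few mice. Without N/N female mouse 4, or without J/J male mouse 8, 7 members were called instead of 12, and without mice 11 and 8, the farthest from the median score, 1 was, Cacna1g at 0.61 (adjusted p = 0.0160). With the meningeal score as a further term, an alternative added after seeing the data, 3 were called, Scn7a (1.17) and Cacna1g (0.53) among them. Single mice also ended calls of Cacna2d1 (mouse 11), Scn4b (mice 4 and 8), Cacng4 (mouse 4), Cacna2d2 (mice 3, 4, 5, 6, 8 and 13), Cacna2d3 (mice 3 to 11) and Scn3a (any mouse but 7, 12 and 14).

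**Figure D2:**
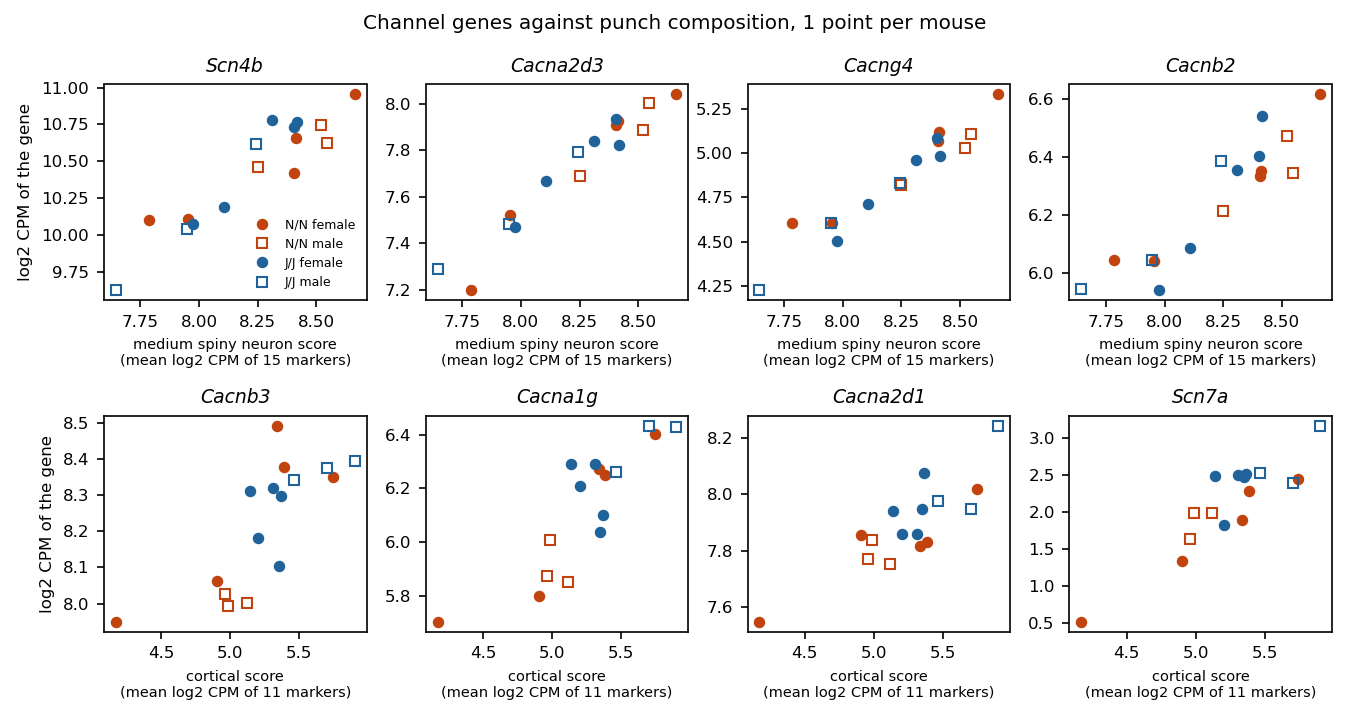
Log2 CPM of 8 members, 1 point per mouse, against the medium spiny neuron score (top row) and the cortical score (bottom row), with genotype by colour and sex by shape. The top 4 genes rise along a narrow band, and in the bottom row N/N female mouse 11 at a cortical score of 4.17 is the lowest point of each panel.

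**Figure D3:**
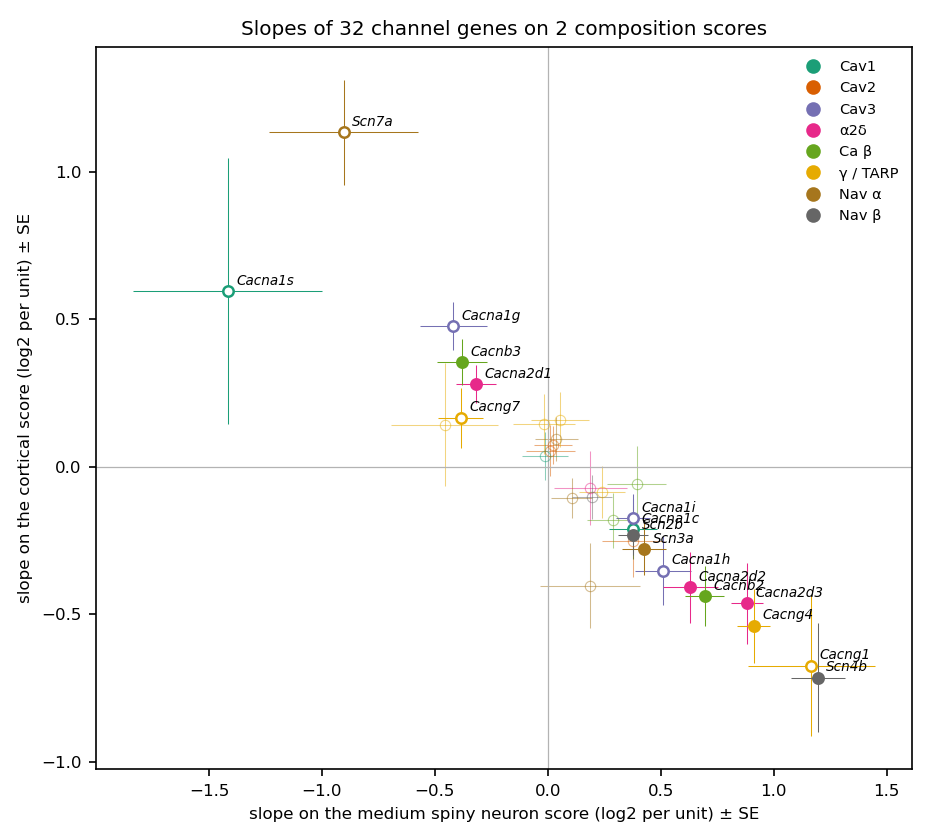
Slopes of 32 members on the medium spiny neuron score (x axis) and the cortical score (y axis), in log2 units per unit of score, with standard errors and colours by subfamily. Filled points passed the adjusted threshold on both scores, open labelled points on 1, and faint points on neither. Scn4b lies at the lower right (1.19 and -0.71), Cacna1s has the lowest medium spiny neuron slope (-1.42) and Scn7a the highest cortical slope (1.13).

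Slopes of members of a single calcium channel subfamily had opposite signs. On the medium spiny neuron score, Cacna2d2 and Cacna2d3 rose and Cacna2d1 fell among the alpha2delta genes, Cacnb2 rose and Cacnb3 fell among the beta genes, and Cacng1 and Cacng4 rose and Cacng7 fell among the gamma genes. On the myelin score 3 members passed, or 8.82% against 4.77% of all genes: Cacnb3 fell (-0.54, SE 0.11, adjusted p = 0.00921), Cacna1s fell (-1.75, SE 0.49, adjusted p = 0.0488) and Cacng1 rose (1.24, SE 0.34, adjusted p = 0.0462). None of the 3 was past the threshold in N/N mice, in J/J mice, in females, or with the cortical score in the same fit. Without N/N female mouse 13 no member was called and without N/N female mouse 4 there were 6. Without any 1 of mice 3, 8, 9, 10, 11 and 16 the count was 1.

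No channel gene differed between N/N and J/J mice past the adjusted threshold, and neither did any other gene (0 of 34 members, 0% of 16113 genes). DESeq2 and limma-voom also called 0 members. At an unadjusted p under 0.05 edgeR gave 6 members (17.6%) against 6.80% of all genes, 5 lower and 1 higher in N/N. All 6 had an adjusted p of 0.712. The groups overlapped for all 34 members, and overlap was not counted over the other genes. The median log2 fold change (N/N relative to J/J) was 0.030 over the members and 0.0017 over all genes tested.

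Scn7a ran from 1.37 to 5.40 CPM in N/N mice with a median of 3.82, and from 3.47 to 8.96 CPM in J/J mice with a median of 5.57. Every one of the 8 N/N values was under the median of J/J mice, and its log2 fold change was -0.65 (SE 0.22, unadjusted p = 0.00857 in edgeR's fit across all genes). Scn1a, the Nav1.1 gene whose channel is prominent in fast-spiking interneurons, ran from 132 to 156 CPM in N/N with a median of 140 and from 143 to 170 CPM in J/J with a median of 164. Again 8 of 8 N/N values were under the J/J median, with a log2 fold change of -0.15 (SE 0.050, unadjusted edgeR p = 0.00876). Interneuron markers (10 of 10 listed, none at 0 in all mice) summed to 305 to 356 CPM for N/N and 285 to 363 CPM for J/J, and their part in the Scn1a values was not tested. Sst (mean 135 CPM) and Npy (55.3 CPM) led this sum. Pvalb had a mean of 21.3 CPM (11.9 to 29.3), so the sum says little of a single interneuron type. Cacna2d1 ran from 187 to 259 CPM in N/N (median 224) and from 231 to 304 CPM in J/J (median 248), with 7 of 8 N/N mice below the J/J median and a log2 fold change of -0.18 (SE 0.062, unadjusted edgeR p = 0.0106).

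Cacng5, a TARP gene, was the one with a higher value in N/N, at 7.48 to 15.8 CPM (median 10.1) against 7.35 to 10.9 CPM (median 8.65), with 7 of 8 N/N mice above the J/J median. Its log2 fold change was 0.32 (SE 0.14, unadjusted edgeR p = 0.0313), and 0.20 without N/N male mouse 12. Cacna1g had -0.22 (SE 0.098, unadjusted edgeR p = 0.0386) and Cacna1d, the Cav1.3 gene, -0.11 (SE 0.054, unadjusted edgeR p = 0.0491). The 95% intervals of the other members bound what these mice can show. For Scn4b the ratio of N/N to J/J was 1.10 with an interval of 0.855 to 1.42, for Cacna1a 0.957 (0.897 to 1.022) and for Scn8a 0.970 (0.900 to 1.05).

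**Figure D4:**
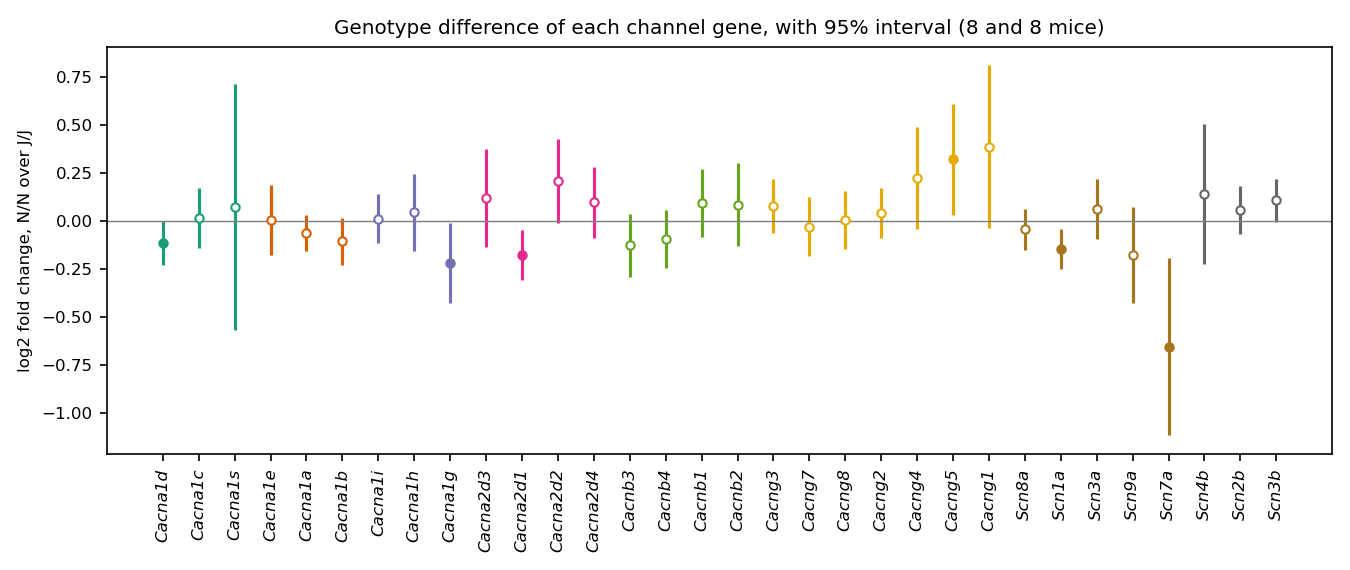
Genotype difference (log2, N/N relative to J/J) of 32 members with 95% intervals, coloured by subfamily, filled where the unadjusted p is under 0.05. The 6 filled points are Scn7a, Scn1a, Cacna2d1, Cacna1g and Cacna1d below 0 and Cacng5 above it, and none passed the adjusted threshold.

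The composition scores of the genotypes overlapped and were not tested against genotype. The cortical score was 5.08 ± 0.46 (SD, n = 8) in N/N and 5.43 ± 0.26 in J/J, the medium spiny neuron score 8.32 ± 0.30 and 8.13 ± 0.27, and the myelin score 7.37 ± 0.27 and 7.20 ± 0.21. With the cortical score as a term, the genotype difference of Scn7a went from -0.65 to -0.33, of Cacna2d1 from -0.18 to -0.080 and of Cacna1g from -0.22 to -0.069. Those of Scn1a (-0.18), Cacng5 (0.37) and Cacna1d (-0.10) moved less. For Scn7a, Cacna2d1 and Cacna1g the values with the cortical score were the smallest differences under any alternative tried. With that term too, 0 members passed the adjusted threshold, and likewise with the myelin, medium spiny neuron or meningeal score as a term. The medium spiny neuron and meningeal terms were added after seeing the data. The part of composition in the differences was not tested beyond these fits. Leaving out N/N female mouse 13 gave 10 members at an unadjusted p under 0.05 instead of 6. The share of all genes in that fit is not given here, so this rise cannot be set against it.

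Sex and its interaction with genotype gave no call among the members (edgeR, DESeq2 and limma-voom). Between females and males 0 of 34 passed, against 0.0559% of all genes, and at an unadjusted p under 0.05 the count was 0 against 4.95%. The smallest p was that of Cacna1i, at 148 to 185 CPM in 10 females and 135 to 168 CPM in 6 males (log2 fold change, females over males, 0.13, SE 0.064, unadjusted edgeR p = 0.0635), and the groups overlapped. The interaction gave 0 calls among members and 0% over all genes, with 3 members (8.82%) at an unadjusted p under 0.05 against 6.94% of genes. These were Cacnb3 (0.38, SE 0.14, unadjusted edgeR p = 0.0128), Cacng1 (-0.91, SE 0.37, unadjusted edgeR p = 0.0252) and Cacna1g (0.39, SE 0.18, unadjusted edgeR p = 0.0498), where the value is the genotype log2 fold change in females minus that in males. Next came Scn1a (-0.17) and Cacna2d2 (-0.36). The count was 6 without N/N female mouse 11 and 5 without J/J male mouse 15, with the shares of all genes in those fits not given here. Within females the genotype test gave 1 member at an unadjusted p under 0.05, Scn1a (-0.21), against 4.41% of genes, and within males 6 members against 11.3%.

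A list of 35 genes whose proteins bind or regulate these channels or the AMPA receptors that TARPs serve was taken along. None of its genes passed the genotype test. At an unadjusted p under 0.05 edgeR gave 6 of the 35 (17.1%), 5 lower and 1 higher in N/N, against 6.80% of all genes. This was close to the 17.6% of the members, so that share was not particular to the channel genes. Unlike the members, the partners had no minimum level, and 33 of the 35 reached a mean of 1 CPM. Stac, the 1 higher in N/N, had 0.758 CPM. The 3 with the smallest p were the AMPA receptor subunit genes Gria4 (-0.15, SE 0.040, unadjusted edgeR p = 0.00122) and Gria3 (-0.12, SE 0.047, unadjusted edgeR p = 0.0183) and Unc80 of the sodium leak channel complex (-0.12, SE 0.047, unadjusted edgeR p = 0.0214), each with an adjusted p of 0.712. On the cortical score 10 of 35 were called (28.6% against 11.9% of all genes), 8 rising and 2 falling, led by Cnih3, an AMPA receptor auxiliary subunit (0.74, adjusted p = 2.61e-05), the calcium-binding Cabp1 (0.50, adjusted p = 0.000474) and the kinase gene Camk2a (0.42, adjusted p = 0.00164). On the medium spiny neuron score 12 were called (34.3% against 13.5%), 6 in each direction, and on the myelin score 3 (8.57% against 4.77%).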

How the data were processed

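The authors aligned 50 bp single-end reads of stranded mRNA libraries with TopHat2 2.1.0 to the mm10 build and used HTSeq 0.6.1p1 to count reads per gene, per the labels' protocols and the submitters' processing notes, which also name FastQC 0.11.3, edgeR 3.8.6 and limma 3.22.7. The deposited values are raw read counts per gene, in 64 tables of 1 mouse and run each. The annotation and strand setting of the counting are not given in the sources used here. Overlapping genes (Lrtm1 in Cacna2d3, Gm10684 at Scn2b, Gm13315 in Cacnb2, Dcp1a and Chdh in Cacna1d) may exchange reads with members. Left out were the 5 summary rows per table, for reads outside genes (19.95%), reads without a unique alignment (21.84%) and ambiguous reads (0.78%).

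Counts were added up over the 4 runs of each mouse. The series text gives 4 females and 4 males per genotype and the sample labels 5 and 3, and the sample labels were used. Mice 10 and 11 carry the same cage label, and each remaining mouse has its own.

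Tests used edgeR 4.0.16 in R 4.3.3: TMM factors (0.97 to 1.025), filterByExpr (minimum count 10, minimum total 15), which left 16113 genes, and the robust quasi-likelihood F test with Benjamini-Hochberg adjustment over all of them, at 0.05. The spread between mice was a common biological coefficient of variation of 10.2%. Genotype, sex and slopes came from models with sex and genotype, and the interaction from a 4-group model. Log2 CPM used a prior count of 2. Lengths and positions came from GENCODE M21 (GRCm38, the assembly of mm10). The tests were tried on simulated data. Alternatives were RLE factors, library size only, no filter, DESeq2 1.42.0, limma-voom (limma 3.58.1), a fit that is not robust, no sex term, composition scores as terms, single genotypes or sexes, a principal component as score, a level of 5 CPM for members, and leaving out each mouse.

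The members, marker and partner lists and tests were chosen with earlier results of these data known. Named were the highest and lowest member of each subfamily per kb, the 6 smallest p for genotype, sex and interaction, the 6 largest slopes in each direction past the threshold, the most and least variable member, and 3 partners for genotype and for the cortical slope. Values of some single members are not reported here; counts and medians include them.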

Additional observations from a re-analysis of the deposited data

Results flagged for a closer look

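Of the 68 groups of 8 mice looked at (34 members, each genotype apart), 1 had a mouse far from the others. Scn7a in J/J male mouse 8 was at 8.96 CPM, where the next J/J mouse was at 5.75 and the lowest at 3.47 CPM. Chance flags about 1 in 20 groups. The same mouse had the highest cortical score, 5.90, and the lowest medium spiny neuron score, 7.65, of the 16, and the part of these in its Scn7a level was not tested. Without it the genotype log2 fold change of Scn7a was -0.54 and its slope on the cortical score 1.09 (edgeR adjusted p = 0.00224).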

How the results depend on the processing

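No member passed the adjusted threshold for genotype, sex or the interaction under any alternative run. Members called on the cortical score were 12, and 2 in N/N mice alone or females alone, 1 in J/J mice alone or without the 2 farthest mice, 3 with the myelin score in the fit or with the meningeal score (added after seeing the data), and 7 to 12 on leaving out each mouse. On the medium spiny neuron score they were 16, and 4 in N/N mice, 7 in J/J mice, 6 in females, 9 without the 2 farthest mice, and 12 to 19 on leaving out each mouse. On the myelin score they were 3, and 1 with library size only or for members at 5 CPM or more, 8 with DESeq2, 6 with the score as the only term, 0 in N/N mice, in J/J mice, in females, without the 2 farthest mice or with the cortical score, and 0 to 6 on leaving out each mouse. At an unadjusted p under 0.05, leaving out each mouse gave 4 to 10 members for genotype, 0 to 2 for sex and 2 to 6 for the interaction. Females in the 4-group fit gave 1 for genotype, and library size only or DESeq2 gave 1 for sex. Apart from the 4-group fit, shares over all genes under these alternatives are not given here. Shifts in the member counts therefore cannot be set against all genes. Fits of a single genotype or sex hold fewer mice, and the cause of none of these shifts was tested. The slope of Cacnb3 on the medium spiny neuron score was the only value that changed sign, to 0.034 in J/J mice. Of 43 named differences and slopes, 618 of 688 values on leaving out a mouse and 368 of 475 under the other alternatives kept direction and side of the threshold. The 6 named for each of genotype, sex and the interaction never passed it, and all their values stayed so, which raises these totals. The 70 and 106 values that lost a call were therefore all of slopes. Scn3a on the cortical score kept its call under 3 of 14 other alternatives. No paired analysis was possible because mouse numbers are not shared between the groups. With 8 mice a group, members under 10 CPM carry counting errors that widen their intervals.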
